A study of Mus musculus with 54 samples.

Results

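Imprinted genes are transcribed mainly from the copy inherited from 1 parent, and 34 of them were followed here through testis and ovary of mice whose parents, or who themselves, drank water with a mixture of pharmaceuticals. They were taken by symbol from a fixed list, and all 34 were among the 26264 entries of the deposited tables of both tissues. By textbook knowledge, 13 are expressed from the maternal copy and 20 from the paternal copy in at least some tissues, and Gnas uses either copy depending on the transcript. A class need not hold in every tissue, testis and ovary included. These classes are background and were not measured: the libraries do not separate the 2 alleles, so every value below is the total level of both copies.

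The mixture held ibuprofen, its metabolite 2-hydroxyibuprofen, diclofenac (another anti-inflammatory drug) and 17a ethinyl-estradiol, the synthetic oestrogen of contraceptive pills. Dose 1 held 11.3, 90, 22.5 and 2.25 ng/L in that order, dose 2 held 113, 225, 112 and 45 ng/L, and control animals drank diluted ethanol at 0.001%. First-generation (F1) animals were exposed from 8.5 days post-coitum until sampling, at 10 weeks for testis and 8 weeks for ovary. Second-generation (F2) animals, labelled as given no treatment, came from crosses of F1 animals: both control parents, a dose 1 or dose 2 mother with a control father, a dose 1 or dose 2 father with a control mother, or 2 dose 2 parents. F2 animals were also sampled at 10 weeks for testis and 8 weeks for ovary. Strain is not given in the labels. Each tissue thus had 9 groups of 3 libraries, 54 libraries in all. In the cross codes of the tables the male was read first, as in the sample titles; the headers do not state this order, and reading it the other way would exchange father and mother in every value below. The labels do not tie the 3 libraries of a group to different litters or animals. Each p-value is therefore set against sample-to-sample spread, which may be technical.

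Genomic imprints are DNA methylation marks laid down in the germ line, differently in sperm and egg, and kept through embryonic life while most other methylation is erased. In the germ cells of each new individual they are wiped and set again by its own sex. Many imprinted genes act on growth: Igf2 is a foetal growth factor, Igf2r clears it, Grb10 dampens insulin and IGF signalling, and Cdkn1c stops the cell cycle. Others are long non-coding RNAs, of which Airn and Kcnq1ot1 silence neighbouring genes on their own chromosome. An adult testis is mostly germ cells after imprint erasure, whereas an adult ovary is mostly somatic, so the parental class of a gene applies to each tissue to a different degree.

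The methylated copy of an imprint is protected by ZFP57, a zinc finger protein that binds the letters TGCCGC when methylated. Promoter windows of RefSeq (GRCm38.p6, 250 bases before to 50 bases after a start) were found for 28 members, 41 windows in all. TGCCGC or its reverse complement GCGGCA stood in 12 of the 41 windows (29.3%), against 3813 of 32851 windows of all genes (11.6%). Member windows held a median of 13 CG pairs, against 7 in all windows. These 4 windows are printed because their genes carry the results below: Nap1l5 and Nnat for the widest gap between the tissues, Kcnq1ot1 for its rise in testis and Meg3 for the ovary. Capitals mark TGCCGC and GCGGCA, read on the gene's strand, 5′ to 3′. A match is a string of letters and not a measured binding site.

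Nap1l5 (chr6:58907077-58907376, minus strand): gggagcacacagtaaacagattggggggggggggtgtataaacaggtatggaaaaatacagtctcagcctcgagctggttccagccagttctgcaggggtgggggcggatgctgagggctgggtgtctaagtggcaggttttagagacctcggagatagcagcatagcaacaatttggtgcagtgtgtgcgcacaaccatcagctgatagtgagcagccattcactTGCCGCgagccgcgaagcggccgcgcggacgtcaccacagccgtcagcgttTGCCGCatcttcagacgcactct
Nnat (chr2:157559828-157560127, plus strand): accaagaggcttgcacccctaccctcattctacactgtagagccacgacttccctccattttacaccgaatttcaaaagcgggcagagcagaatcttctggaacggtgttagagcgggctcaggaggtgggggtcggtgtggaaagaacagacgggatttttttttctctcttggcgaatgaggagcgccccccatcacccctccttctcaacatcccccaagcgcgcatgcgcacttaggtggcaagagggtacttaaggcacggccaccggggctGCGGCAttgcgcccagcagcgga
Kcnq1ot1 (chr7:143296498-143296797, minus strand): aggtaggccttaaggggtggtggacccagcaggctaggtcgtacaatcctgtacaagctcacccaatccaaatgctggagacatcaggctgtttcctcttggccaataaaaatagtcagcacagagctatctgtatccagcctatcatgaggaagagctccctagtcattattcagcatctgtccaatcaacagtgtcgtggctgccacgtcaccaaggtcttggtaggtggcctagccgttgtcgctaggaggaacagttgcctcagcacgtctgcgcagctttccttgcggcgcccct
Meg3 (chr12:109540746-109541045, plus strand): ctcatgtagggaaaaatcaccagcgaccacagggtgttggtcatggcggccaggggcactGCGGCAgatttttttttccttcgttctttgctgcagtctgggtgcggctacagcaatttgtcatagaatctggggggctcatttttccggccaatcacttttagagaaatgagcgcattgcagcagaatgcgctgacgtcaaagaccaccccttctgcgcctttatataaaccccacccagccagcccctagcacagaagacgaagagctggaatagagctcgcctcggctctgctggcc

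Nap1l5 held 2 such matches, Nnat 1 and Meg3 1, while the printed Kcnq1ot1 window held none, which says only that these letters are not in that window.

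Total counts per library were 31835494 to 46432282 in testis and 35642474 to 101817720 in ovary. Levels are in CPM, a gene's count relative to the total of its library, scaled within each tissue. Defining markers fitted the labelled tissues: Prm1, a sperm protamine, was 1799 to 6471 CPM in testis and at most 0.79 CPM in ovary, and Foxl2, a granulosa cell factor, was 162.5 to 302.4 CPM in ovary and at most 0.131 CPM in testis. Some ovary libraries stood apart. The summed oviduct markers reached 1165 and 434.1 CPM in F1 dose 2 libraries A and B, and the summed adrenal cortex markers reached 234.5, 128.1 and 98.16 CPM in F1 dose 1 C, F1 control C and F2 control parents C, against at most 34.55 CPM elsewhere. Signal of long genes relative to short genes was taken from each gene's log2 level minus its median over the 27 libraries of the tissue. It is the median of these deviations in the longest decile of genes minus that in the shortest decile. This long-gene signal was lowest in ovary F1 control A (-1.33) and F2 both parents dose 2 C (-0.848), and in testis in F1 dose 1 A (-0.746) and F1 control C (-0.554).

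Most of the imprinted genes were more abundant in ovary. Of the 30 members with a median count of at least 10 in a tissue, 18 were higher in every ovary library than in every testis library, 4 were higher in every testis library, and 8 overlapped. Over all 19969 genes with that count the shares were 41.3% and 30.5%, so 18 of 30 stands beside a background of 41.3% and 4 of 30 beside 30.5%. The paternally expressed genes were 12 higher in ovary, 2 higher in testis and 3 overlapping; the maternally expressed genes were 5, 2 and 5. In these whole-organ samples, fewer cells of a type and less RNA per cell cannot be told apart.

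Nap1l5, a nucleosome assembly protein gene that sits in an intron of Herc3, had a median of 201.8 CPM in ovary (111 to 305 CPM) and 0.245 CPM in testis (0 to 0.482 CPM), an 824-fold difference of medians. Nnat, which encodes the membrane proteolipid neuronatin and sits in an intron of Blcap, had 71.1 CPM in ovary and 0.314 CPM in testis, 227-fold. Plagl1, a zinc finger transcription factor, was 25.7-fold higher in ovary, H19 19.7-fold, Airn 17.8-fold, Mest 14.2-fold and Ndn 13-fold. Gnas, which encodes the stimulatory G protein subunit that couples gonadotropin receptors to cAMP, had the highest CPM of the members in ovary, 906.2 CPM against 104.9 CPM in testis.

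The 4 genes higher in testis were Slc22a18, an organic cation transporter (13.8 against 0.367 CPM, 37.6-fold), Kcnq1ot1 (127 against 37.5 CPM, 3.39-fold), Mcts2, a retrotransposed translation factor gene in an intron of H13 (22.6 against 11.9 CPM, 1.9-fold), and Copg2, a coatomer subunit (78.7 against 56.5 CPM, 1.39-fold). Igf2 overlapped between the tissues: 9.8 CPM in testis (6.31 to 13.6 CPM) and 10.02 CPM in ovary (7.6 to 21.6 CPM). Cdkn1c overlapped too, with medians of 12.7 and 13.2 CPM.

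**Figure D1:**
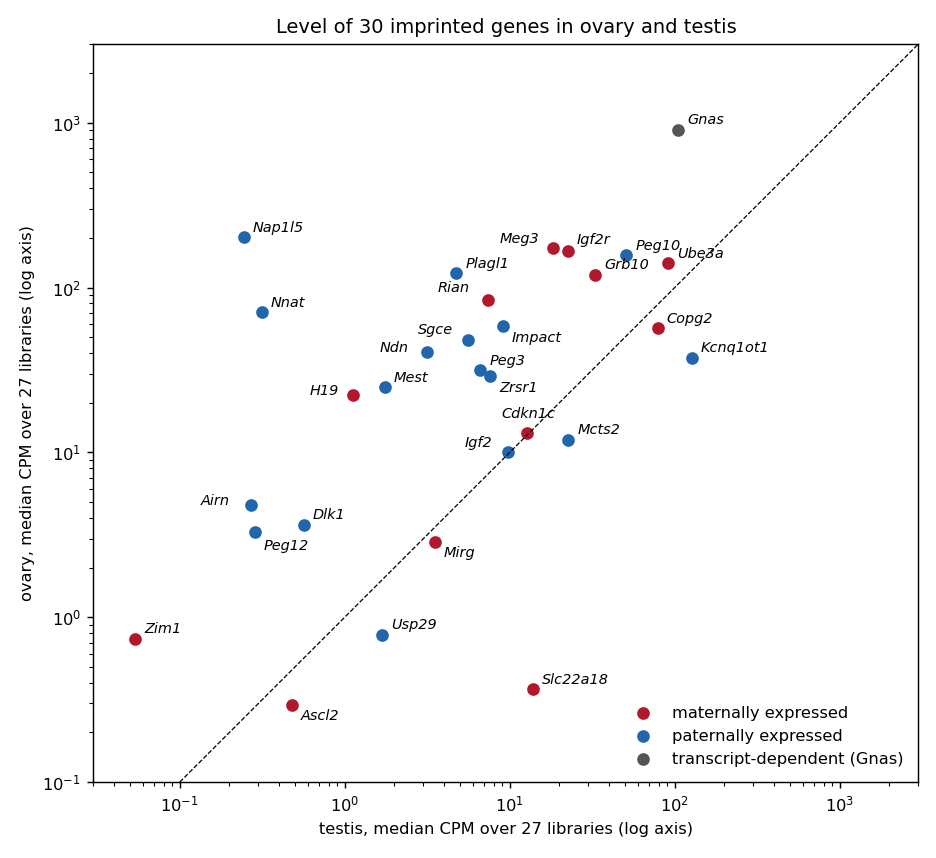
Median CPM of 30 imprinted genes over 27 testis libraries (x axis, log scale) and 27 ovary libraries (y axis, log scale), coloured by expressed copy; the dashed line marks equal levels. Nap1l5 and Nnat lie farthest above the line, and Slc22a18 lies farthest below it.

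Per kilobase of exon (GENCODE M21 models), Nap1l5 led the ovary at 109.4 CPM per kb, then Gnas at 80.98 and Nnat at 38.87. In testis Mcts2 led at 24.76 CPM per kb, then Copg2 at 15.38 and Gnas at 9.377. Kcnq1ot1 had the highest CPM of the members in testis, but with 93.09 kb of exon model it stood at 1.366 CPM per kb, rank 13 of 34.

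There were 4 members with too few counts to test in either tissue. Magel2 had 0 to 3 counts per library in testis and 0 to 8 in ovary, Rtl1 0 to 3 and 0 to 8, Phlda2 0 to 10 and 0 to 12, and Snrpn 0 to 16 and 0 to 4. Zim1, a zinc finger gene, had 0 to 7 counts in testis and was tested in ovary only. A count of 0 allows up to 3 counts, or 0.0646 to 0.0942 CPM in testis and 0.0295 to 0.0842 CPM in ovary (counting error only). Snrpn shares 27.3% of its exon bases with Snurf and another gene on the same strand, and the counting of reads from overlapping genes is not stated in the labels or notes. Snurf was at 0 CPM in every library of both tissues. Whether the low Snrpn count comes from little RNA or from the counting of shared reads was not tested. Other overlaps among members with printed results are Igf2 (62.8% of exon bases shared with a same-strand model), Gnas (22% opposite a gene on the other strand), Ube3a (27.3% opposite), Cdkn1c (30.7% opposite), Mest (23.1% opposite) and Copg2 (17.8% opposite).

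That left 29 members tested in testis (11 maternally and 17 paternally expressed, and Gnas) and 30 in ovary (12, 17 and Gnas). Across the 9 groups of a tissue, the highest group mean was a median of 1.52 times the lowest in testis, where 13 members stayed under 1.5 times and 5 reached 2 times or more. In ovary the median was 1.49 times, with 15 members under 1.5 times and 6 at 2 times or more. Steadiest were Copg2 in testis (72.2 to 81.4 CPM between group means) and Gnas in ovary (817 to 959 CPM). Widest were Nnat in testis (0.132 to 0.817 CPM), Slc22a18 in ovary (0.189 to 1.25 CPM) and Dlk1 in ovary (3.01 to 14.8 CPM). The highest Slc22a18 mean, in F1 dose 2, rests on library A at 2.94 CPM, the library with the highest oviduct marker sum; without it the mean is 0.409 CPM.

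The question of the design is whether it matters which parent was exposed. Differences below are log2 fold changes ± SE from edgeR's quasi-likelihood test (two-sided), with Benjamini-Hochberg adjustment over all genes tested, and a gene is called at an adjusted p under 0.05. No control library enters a comparison of exposed father with exposed mother. In testis, 0 of 29 members were called at dose 1 (1.16% of all genes were called), at dose 2 (0.109%), with both doses pooled, 6 libraries against 6 (0.333%), and in the test of whether the parental difference changed with dose (0.644%). At an unadjusted p under 0.05 there were 6, 0, 3 and 2 members, beside 15.1%, 7.14%, 12.5% and 9.94% of all genes, and DESeq2 called 0 in all 4 (2.49%, 0.423%, 1.4% and 1.59% of all genes). In ovary, 0 of 30 members were called in the same 4 comparisons (0.0%, 0.00573%, 0.00573% and 0.0% of all genes). At an unadjusted p under 0.05 there were 3, 5, 3 and 4 members, beside 4.93%, 20.4%, 12.3% and 12.9% of all genes, and DESeq2 called 0, 1, 0 and 0 (0.0133%, 6.1%, 0.182% and 0.824% of all genes).

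In testis with the doses pooled, 13 of the 17 paternally expressed genes were above 0 (higher with an exposed father), with a median log2 difference of 0.19, and 4 of the 11 maternally expressed genes were, with a median of -0.0034; over all genes the median was 0.0041 and 51.2% lay above 0. At dose 1 the counts were 11 of 17 (median 0.23) and 7 of 11 (median 0.07), and at dose 2 they were 13 of 17 (median 0.09) and 7 of 11 (median 0.14). The maternal median was thus above 0 at each dose taken alone. In ovary with the doses pooled, 7 of 17 paternally expressed genes (median -0.0093) and 4 of 12 maternally expressed genes (median -0.09) were above 0, against a median of 0.0036 over all genes. These counts carry no test, and members of 1 domain are neighbours, not independent genes.

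**Figure D2:**
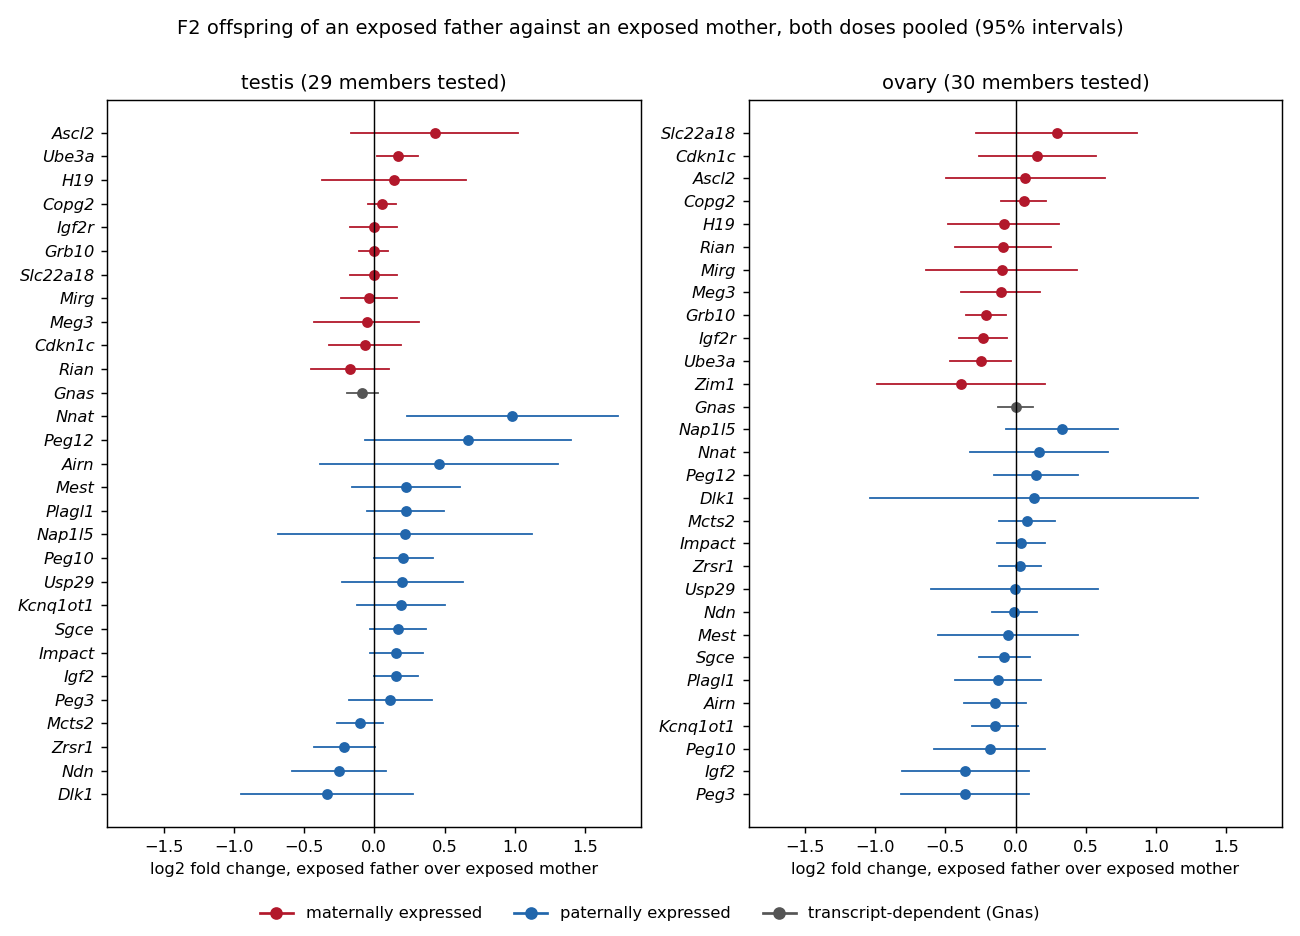
Log2 fold change with its 95% interval (x axis) for each tested member (y axis) in F2 offspring of an exposed father against an exposed mother, 6 libraries each, in testis (left) and ovary (right). In testis 13 of 17 paternally expressed genes lie right of 0; no member passed the adjusted threshold in either tissue.

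In testis the paternally expressed gene with the smallest p was Nnat. Its levels were 0.714, 0.161 and 0.216 CPM with a dose 1 father and 0.264, 0.572 and 0.490 CPM with a dose 2 father, against 0.142, 0.171 and 0.0825 CPM with a dose 1 mother and 0.366, 0.340 and 0.245 CPM with a dose 2 mother. The groups overlapped, at a level near the counting limit, and the log2 difference was 0.98 ± 0.36 (edgeR adjusted p = 0.303). Igf2 was next. It had 11.1, 11.03 and 10.4 CPM (dose 1 father) and 10.5, 11.1 and 11.2 CPM (dose 2 father), against 9.17, 8.90 and 9.16 CPM (dose 1 mother) and 9.41, 10.8 and 11.6 CPM (dose 2 mother). At dose 1 all 3 libraries with an exposed father were above all 3 with an exposed mother (0.27 ± 0.10, edgeR adjusted p = 0.235), and at dose 2 they overlapped. Peg10, a retrotransposon-derived gene needed in the placenta, ran from 46.5 to 64.2 CPM with an exposed father and from 44.7 to 62.7 CPM with an exposed mother (0.21 ± 0.10, edgeR adjusted p = 0.403).

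Among the maternally expressed genes of testis, Ube3a, a ubiquitin ligase, had the smallest p. Its levels were 90.8, 101 and 104 CPM (dose 1 father) and 113, 111 and 100.0 CPM (dose 2 father), against 91.7, 79.7 and 89.7 CPM (dose 1 mother) and 112, 91.6 and 88.1 CPM (dose 2 mother), a difference of 0.17 ± 0.07 (edgeR adjusted p = 0.350). Ascl2, a bHLH transcription factor, was 0.375 to 0.895 CPM with an exposed father and 0.318 to 0.679 CPM with an exposed mother (0.43 ± 0.28, edgeR adjusted p = 0.510). Rian, a non-coding RNA that carries small nucleolar RNAs, had 6.6, 5.73 and 6.82 CPM with a dose 1 father, below 8.92, 10.9 and 8.17 CPM with a dose 1 mother (-0.54 ± 0.19, edgeR adjusted p = 0.189). At dose 2 its father group (10.3, 9.29 and 9.07 CPM) overlapped its mother group (5.27, 9.69 and 9.99 CPM), and the change of the parental difference with dose was 0.73 ± 0.26 (edgeR adjusted p = 0.313).

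In ovary the 3 smallest p-values among the maternally expressed genes all lay on the side of lower levels with an exposed father. Grb10 had 92.2, 113 and 123 CPM (dose 1 father) and 117, 112 and 117 CPM (dose 2 father), against 124, 126 and 141 CPM (dose 1 mother) and 133, 116 and 137 CPM (dose 2 mother), a difference of -0.21 ± 0.066 (edgeR adjusted p = 0.327). Igf2r had 150.2, 169.7 and 166 CPM (dose 1 father) and 143, 145 and 136 CPM (dose 2 father), against 183, 164 and 157 CPM (dose 1 mother) and 222, 188 and 153 CPM (dose 2 mother), a difference of -0.23 ± 0.08 (edgeR adjusted p = 0.329). At dose 2 its groups did not overlap (-0.42 ± 0.11, edgeR adjusted p = 0.104), and this is the one parental comparison of a member that DESeq2 called (DESeq2 adjusted p = 0.0230). Cell markers separated the same 2 groups: with a dose 2 father against a dose 2 mother, the oocyte markers summed to 498.6 to 547.4 against 346.3 to 380.1 CPM, the granulosa markers to 4531 to 5685 against 3060 to 4113 CPM and the corpus luteum markers to 1736 to 2555 against 3087 to 7816 CPM. Their part in the Igf2r values was not tested. Ube3a had 127, 106 and 96.8 CPM with a dose 2 father, below every other library with 1 exposed parent (137 to 159 CPM), and its pooled difference was -0.25 ± 0.10 (edgeR adjusted p = 0.361).

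Ube3a has a long transcript, and the dose 2 father libraries B and C had lower long-gene signal (-0.466 and -0.366) than any other library with 1 exposed parent. Without library B of that group and both parents dose 2 C, the pooled differences were -0.23 for Ube3a, -0.24 for Igf2r and -0.19 for Grb10. Whether the remaining tilt has a part in these values was not tested.

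Among the paternally expressed genes of ovary, Kcnq1ot1 differed by -0.15 ± 0.08 (edgeR adjusted p = 0.442), with 30.0 to 38.1 CPM where the father was exposed and 30.9 to 42.0 CPM where the mother was. Nap1l5 differed by 0.33 ± 0.19 (edgeR adjusted p = 0.478), with 202 to 296 CPM and 111 to 293 CPM. Igf2 ran from 7.62 to 15.0 CPM and from 8.15 to 21.6 CPM, a difference of -0.36 ± 0.21 (edgeR adjusted p = 0.491), the 2 highest libraries being dose 1 mother A and B (15.8 and 21.6 CPM). All these groups overlapped.

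Against offspring of control parents, members were called only in the testis of 2 of the 5 crosses. With a dose 2 father 2 of 29 were called (5.33% of all genes were), and with 2 dose 2 parents 2 of 29 (4.59%). With a dose 1 father 0 were called (3.97%), with a dose 1 mother 0 (0.816%) and with a dose 2 mother 0 (1.7%), where 6, 4 and 3 members had an unadjusted p under 0.05, beside 18.4%, 17.9% and 18.5% of all genes. DESeq2 called 1 each, which were Rian, Igf2 and Gnas (6.36%, 3.58% and 5.44% of all genes). The shares of members called are thus near those of all genes. All of these comparisons share the 3 control-parent libraries.

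Gnas fell in both. It had 131, 118 and 127 CPM in testis of control-parent offspring, against 89.5, 95.5 and 99.3 CPM with a dose 2 father (94.8 ± 4.94 CPM, SD, n = 3) and 91.5, 96.8 and 92.4 CPM with 2 dose 2 parents (93.6 ± 2.82 CPM, SD, n = 3). None of the 6 libraries reached the lowest control. The log2 fold changes were -0.41 ± 0.075 (edgeR adjusted p = 0.00787) and -0.43 ± 0.075 (edgeR adjusted p = 0.0044). The means of the other crosses lay between: 104, 120.3 and 105 CPM (dose 1 mother), 95.2, 113 and 107 CPM (dose 2 mother) and 108, 109 and 106 CPM (dose 1 father), none past the threshold. All libraries with a dose 2 mother and with a dose 1 father were also below every control. The call with a dose 2 father was lost without control A (adjusted p = 0.0612) or without father dose 2 A (0.0602), and that with 2 dose 2 parents was kept without each library in turn but lost with only the groups compared in the fit (adjusted p = 0.0839). In F1 testis, Gnas was 96.8 to 109 CPM in controls, 102.1 to 109 CPM at dose 1 and 96.3 to 118 CPM at dose 2. The control-parent mean was the highest Gnas mean of the 9 testis groups.

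Igf2 fell with 2 dose 2 parents, from 13.6, 10.7 and 12.0 CPM in control-parent offspring (12.1 ± 1.46 CPM, SD, n = 3) to 8.83, 8.81 and 7.90 CPM (8.51 ± 0.534 CPM, SD, n = 3), with no overlap and a log2 fold change of -0.52 ± 0.10 (edgeR adjusted p = 0.0111). Without control A, whose Igf2 was the highest, the change was -0.41 (adjusted p = 0.0881), and with only the groups compared in the fit it was -0.51 (adjusted p = 0.150). With a dose 1 mother it was 9.17, 8.90 and 9.16 CPM, also below every control (-0.43 ± 0.10, edgeR adjusted p = 0.0604). With an exposed father it was 10.4 to 11.2 CPM at both doses. H19, its maternally expressed neighbour, was 0.405 to 1.58 CPM in these F2 testes, and differed by -0.29 ± 0.35 with 2 dose 2 parents (edgeR adjusted p = 0.657). For Igf2 the control-parent mean was the highest of the 9 testis groups, and the lowest was 7.99 CPM in F1 dose 1.

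Kcnq1ot1 rose with a dose 2 father: 277, 219 and 171 CPM against 121, 152 and 111 CPM in control-parent offspring (222 ± 53.2 and 128 ± 21.8 CPM, SD, n = 3). The lowest library lay above the highest control, and the log2 fold change was 0.79 ± 0.21 (edgeR adjusted p = 0.0438). The call was lost without control A, control C, father dose 2 A or father dose 2 B, where the change was 0.76, 0.69, 0.60 and 0.80 (adjusted p 0.157, 0.210, 0.177 and 0.123). It was also lost without the filter on low counts (adjusted p = 0.0593) and with only the groups compared in the fit (0.0869). With a dose 2 mother the libraries were 212, 151 and 130.4 CPM, and with 2 dose 2 parents 170.4, 159 and 137 CPM, overlapping the controls. Kcnq1ot1 is the RNA that silences Cdkn1c, Slc22a18, Ascl2 and Phlda2 on the paternal chromosome in the embryo. In the dose 2 father comparison Cdkn1c differed by -0.14 ± 0.17, Slc22a18 by -0.23 ± 0.11 and Ascl2 by 0.30 ± 0.40, and edgeR called none of them (adjusted p 0.660, 0.233 and 0.684).

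**Figure D3:**
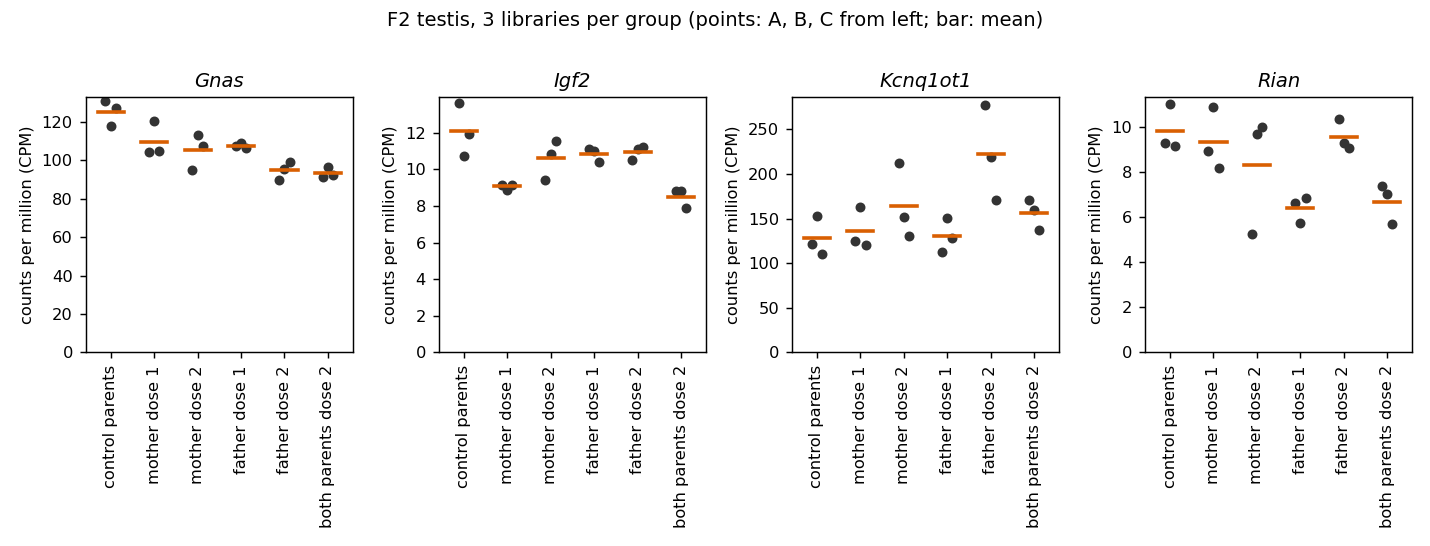
CPM (y axis, from 0) of Gnas, Igf2, Kcnq1ot1 and Rian in the 6 F2 groups of testis (x axis); points are libraries A, B and C and bars are means. Gnas is below every control in each cross except that with a dose 1 mother. Igf2 is below every control with 2 dose 2 parents and a dose 1 mother, and Kcnq1ot1 is above every control with a dose 2 father.

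Rian was below every control with a dose 1 father (6.6, 5.73 and 6.82 CPM against 9.27, 11.01 and 9.13 CPM; -0.62 ± 0.19, edgeR adjusted p = 0.0682) and with 2 dose 2 parents (7.36, 7.01 and 5.67 CPM; -0.57 ± 0.19, edgeR adjusted p = 0.0850). DESeq2 called both (adjusted p 0.0295 and 0.0490). The libraries of its neighbour Meg3 overlapped the controls in both groups, at 12.8 to 18.4 CPM and 17.0 to 21.2 CPM, against 16.6 to 27.1 CPM. The Rian mean of control-parent offspring (9.8 CPM) was the highest of the 9 testis groups, and the lowest was 6.12 CPM in F1 dose 2.

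Cell markers moved with these groups. The summed level of 10 Leydig cell markers was 1585 to 1696 CPM in control-parent testes, 1156 to 1234 CPM with a dose 2 father and 1031 to 1072 CPM with 2 dose 2 parents. It was 1098 to 1267 CPM with a dose 1 father, 1365 to 1523 CPM with a dose 1 mother and 927.3 to 1234 CPM with a dose 2 mother. The defining Leydig markers Star, Cyp17a1 and Insl3 were present in all testis libraries (lowest 107.4, 360.5 and 32.85 CPM). The 8 macrophage markers summed to 109.3 to 113.6 CPM in control-parent testes and 76.77 to 81.64 CPM with 2 dose 2 parents, but also 76.71 to 81.88 CPM with a dose 1 father and 78.41 to 81.35 CPM with a dose 2 mother, where no member was called, and 84.26 to 98.14 CPM with a dose 2 father. The 6 spermatocyte markers summed to 1073 to 1298 CPM in control-parent testes and 1264 to 1405 CPM with a dose 2 father, where edgeR called Sycp1 (0.58) and Hormad1 (0.37) higher. With 2 dose 2 parents they summed to 1214 to 1400 CPM. The spermatid marker sums of these 2 crosses overlapped the controls as well. Spermatogonia markers summed to 84.45 to 90.25 CPM in controls. They were lower with a dose 2 father (72.29 to 80.22 CPM) and with 2 dose 2 parents (80.92 to 82.58 CPM). Spermatogonia sums were also below every control with a dose 1 and a dose 2 mother, and overlapped the controls with a dose 1 father. Sertoli, peritubular and endothelium sums were below every control with a dose 2 father and with 2 dose 2 parents. Sertoli sums were 926 to 1263 CPM in controls, against 899 to 917.2 and 831.4 to 913.5 CPM. Peritubular sums were 92.45 to 107.7, against 63.96 to 91.99 and 74.99 to 81.15 CPM. Endothelium sums were 30.08 to 34.57, against 26.79 to 28.78 and 28.28 to 29.5 CPM. The last 2 were also below every control with a dose 1 father and a dose 2 mother. Whether the cell composition has a part in the Gnas, Igf2 and Kcnq1ot1 values was not tested.

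In F1 testis 0 of 29 members were called at dose 1 (0.0317% of all genes) and at dose 2 (2.21%), with 2 and 3 members at an unadjusted p under 0.05, beside 8.55% and 23.6% of all genes. DESeq2 called 0 and 2 (0.715% and 11.3% of all genes). The 2 were Igf2r, with 27.7, 28.4 and 24.8 CPM at dose 2 against 20.5, 22.5 and 18.1 CPM (0.40 ± 0.12, edgeR adjusted p = 0.0991), and Plagl1, with 5.24, 5.53 and 5.74 CPM against 4.23, 4.15 and 3.84 CPM (0.43 ± 0.12, edgeR adjusted p = 0.0829). Neither pair of groups overlapped. Igf2r was also called without the libraries F1 control C and F1 dose 1 A, whose long-gene signal was low (0.32, edgeR adjusted p = 0.0482), together with Peg10 (0.25, edgeR adjusted p = 0.0478).

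In ovary no member was called against controls in any of the 7 comparisons. The background was 0.0% in F1 dose 1 and dose 2 and with a dose 1 mother, a dose 2 mother and a dose 1 father, 0.00573% with a dose 2 father and 0.688% with 2 dose 2 parents. In that order the members with an unadjusted p under 0.05 numbered 4, 4, 5, 5, 5, 7 and 7 of 30, beside 5.27%, 12%, 9.2%, 5.83%, 9.63%, 15.8% and 24.5% of all genes. DESeq2 called 0 in 5 of these comparisons (0.081% to 2.27% of all genes), 1 with a dose 1 father (0.441%) and 3 with 2 dose 2 parents (11.9%), a share of members near that of all genes in the latter.

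The 3 members were Meg3, Rian and Mirg, the maternally expressed non-coding RNAs of the Dlk1 domain (Mirg is a host of microRNAs). Each had its highest group mean of the 9 ovary groups in offspring of control parents. Rian was 106, 139 and 159 CPM there, and 84.1, 78.4 and 78.0 CPM with 2 dose 2 parents (-0.75 ± 0.23, edgeR adjusted p = 0.0798). Meg3 was 223, 222 and 285 CPM, and 173, 173 and 146 CPM (-0.57 ± 0.19, edgeR adjusted p = 0.0921). Mirg was 4.13, 10.1 and 5.45 CPM, and 3.18, 2.36 and 3.95 CPM (-1.04 ± 0.36, edgeR adjusted p = 0.0979). In the 3 genes none of the libraries with 2 dose 2 parents reached the lowest control, and DESeq2 gave adjusted p of 0.0200, 0.0350 and 0.0326.

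With 1 exposed parent, Rian was 64.1 to 100.4 CPM with a dose 1 mother, 66.6 to 129 CPM with a dose 2 mother, 65.8 to 96.9 CPM with a dose 1 father and 71.1 to 84.4 CPM with a dose 2 father, and its pooled difference between exposed father and exposed mother was -0.09 ± 0.16 (edgeR adjusted p = 0.845). F1 control ovaries had 84.0, 77.6 and 115 CPM of Rian, 2 of them below every F2 control. Without both parents dose 2 C and father dose 2 B, the libraries of F2 with the lowest long-gene signal, edgeR called 0 members and 0 genes in all with 2 dose 2 parents. With all libraries it called 0 members and 120 genes. The smaller fit also has fewer libraries, so lower long-gene signal and fewer libraries cannot be told apart here.

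**Figure D4:**
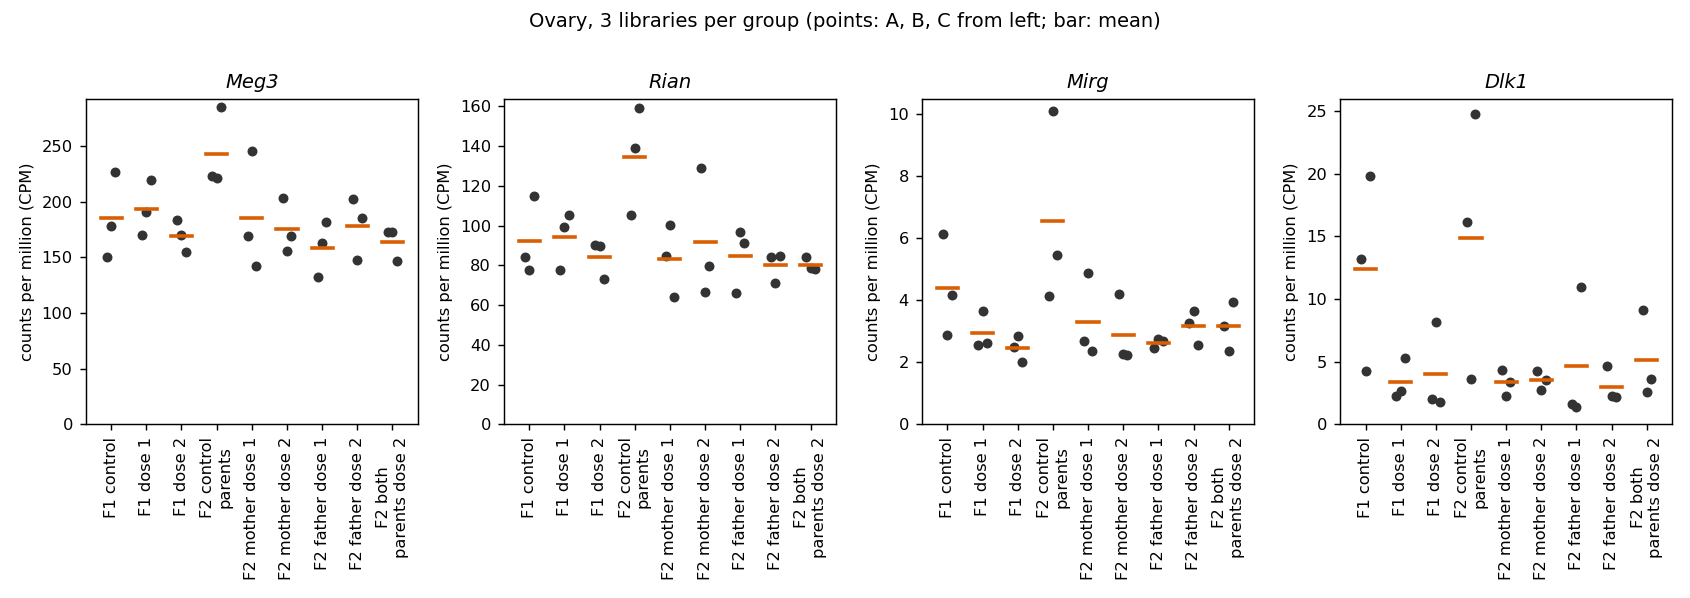
CPM (y axis, from 0) of Meg3, Rian, Mirg and Dlk1 in the 9 ovary groups (x axis); points are libraries A, B and C and bars are means. For Meg3, Rian, Mirg and Dlk1 the F2 control-parent group has the highest mean, and single libraries spread widely for Mirg and Dlk1.

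Dlk1, the paternally expressed Notch-like ligand of the same domain, had its highest means in the 2 control groups, each with 1 low library. The means were 14.8 CPM in control-parent offspring and 12.4 CPM in F1 controls, against 3.01 to 5.11 CPM in the other groups. edgeR called Dlk1 in no comparison with controls. Its levels were 16.1, 3.65 and 24.8 CPM in ovaries of control-parent offspring and 13.2, 4.27 and 19.8 CPM in F1 controls, against 1.36 to 10.9 CPM in the 21 other libraries. The adrenal cortex marker sum was 0.983, 4.78 and 98.16 CPM in the 3 F2 control libraries and 21.54, 2.04 and 128.1 CPM in the 3 F1 controls, while F1 dose 1 C, with the highest sum of 234.5 CPM, had 5.26 CPM of Dlk1. The defining adrenal enzyme Cyp11b1 reached 67.24 CPM in ovary and Cyp11b2 at most 0.0811 CPM. The part of other tissue in the Dlk1 values was not tested. Corpus luteum markers also differed between ovaries: their sum was 2619 to 4238 CPM in control-parent offspring, 1736 to 2555 CPM with a dose 2 father and 3706 to 10090 CPM with a dose 1 father. With 2 dose 2 parents, where Meg3, Rian and Mirg were below every control, it was 2770 to 4176 CPM, within the range of the controls. Endothelium markers summed there to 394.3 to 409.7 CPM, against 331.8 to 379.7 CPM in the controls. Adipocyte markers summed to 33.67 to 39.93 CPM, against 44.84 to 55.96 CPM. The granulosa, theca and oocyte sums overlapped the controls. The part of cell composition in the Meg3, Rian and Mirg values was not tested.

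The 2 ovary libraries with the lowest long-gene signal held extreme values of Peg3, Ube3a, Plagl1 and Gnas, members picked for this with their levels known. Peg3, a zinc finger gene with 13.32 kb of exon model, was 7.82 CPM in F1 control A and 12.6 CPM in F2 both parents dose 2 C, against 19.9 to 58.5 CPM in the other 25 libraries. Ube3a (20.63 kb) was 63.2 and 81.4 CPM in the same 2 libraries and 96.8 to 162 CPM elsewhere, and Plagl1 (7.819 kb) was 42.7 and 64.4 CPM against 97.5 to 156 CPM. At the next lowest signals, dose 2 father B and C, Plagl1 was 126 and 147 CPM, within the range of the other libraries. Gnas went the other way, with its 2 highest ovary values, 1102 and 1030.2 CPM, in these libraries. Igf2r was 99.4 CPM in F1 control A, against 136 to 222 CPM in all others, both parents dose 2 C included (142.3 CPM).

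**Figure D5:**
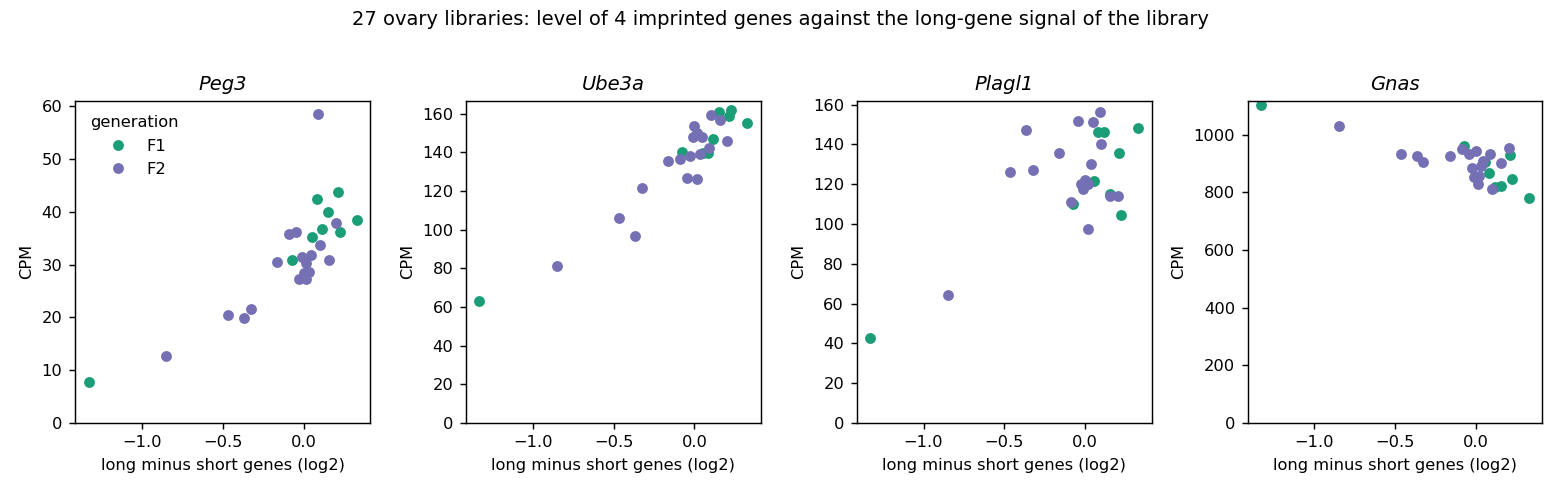
CPM (y axis, from 0) of Peg3, Ube3a, Plagl1 and Gnas in 27 ovary libraries against the long-gene signal of each library (x axis, log2 of long minus short genes), coloured by generation. The 2 libraries at -1.33 and -0.848 have the lowest Peg3, Ube3a and Plagl1 and the highest Gnas.

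Other genes of the imprinting system were taken from lists, and leaving out single libraries was not run for them. Of 29 other maternally expressed imprinted genes in the tables, 21 were tested in testis and 24 in ovary, and of 17 other paternally expressed ones, 12 or 13. With an exposed father against an exposed mother, doses pooled, edgeR called 1 of 13 other paternally expressed genes in testis and 0 of 21 other maternally expressed ones (4 and 2 at an unadjusted p under 0.05). Over all genes of testis 0.333% were called and 12.5% had an unadjusted p under 0.05. The gene called was Peg13, a non-coding RNA, which had 15.4, 20.5 and 20.4 CPM (dose 1 father) and 19.4, 18.7 and 17.1 CPM (dose 2 father), against 12.5, 15.0 and 12.6 CPM (dose 1 mother) and 13.3, 14.4 and 12.4 CPM (dose 2 mother). All 6 libraries with an exposed father were above all 6 with an exposed mother, and the difference was 0.47 ± 0.085 (edgeR adjusted p = 0.0176). Control-parent offspring had 14.0, 15.5 and 12.1 CPM, and offspring of 2 dose 2 parents had 15.9, 14.4 and 15.2 CPM. Peg13 was singled out after its values were seen. The median of the 13 genes was 0.11 and that of the 21 was 0.06, against 0.0041 for all genes. In ovary edgeR called 0 of 12 and 0 of 24 genes (1 and 1 at an unadjusted p under 0.05), with medians of -0.04 and -0.0035. Over all genes of ovary 0.00573% were called and 12.3% had an unadjusted p under 0.05. Ovary means of Peg13 were 81.2 CPM with a dose 1 father and 77.2 CPM with a dose 1 mother. At dose 2 they were 68.7 CPM with an exposed father and 85.9 CPM with an exposed mother.

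Against control-parent offspring, edgeR called Cd81 in 3 testis comparisons. It called 1, 1 and 2 of the 21 other maternally expressed genes with a dose 2 father, a dose 2 mother and 2 dose 2 parents. Over all genes 5.33%, 1.7% and 4.59% were called. Cd81, a tetraspanin gene of the Kcnq1ot1 region, had 66.2, 64.4 and 65.2 CPM in controls, 55.2, 53.1 and 50.9 CPM with a dose 2 father (-0.31 ± 0.082, adjusted p = 0.0414) and 42.0, 44.9 and 44.1 CPM with 2 dose 2 parents (-0.59 ± 0.083, adjusted p = 0.00101). With a dose 2 mother it was 45.7, 59.2 and 50.9 CPM (-0.33 ± 0.082, adjusted p = 0.0476). F1 controls had 50.5, 53.3 and 49.8 CPM of Cd81, also below every control-parent library. Dhcr7, a sterol synthesis enzyme, fell with 2 dose 2 parents (-0.66 ± 0.13, edgeR adjusted p = 0.0109). It went from 42.2, 47.6 and 37.2 CPM in control-parent offspring to 30.1, 30.2 and 20.7 CPM. F1 controls had 24.4, 27 and 17.2 CPM of Dhcr7. Among the paternally expressed genes, Snhg14, a host RNA of small nucleolar RNAs that runs opposite Ube3a, rose with a dose 2 father from 2.27, 3.18 and 2.21 CPM to 4.34, 3.52 and 3.92 CPM (0.61 ± 0.17, edgeR adjusted p = 0.0461). Rasgrf1 fell with a dose 1 father (-0.46 ± 0.12, edgeR adjusted p = 0.0432), and Sfmbt2 rose in F1 dose 2 (0.47 ± 0.087, edgeR adjusted p = 0.0357). With a dose 2 father and with a dose 1 father, 1 of 13 paternally expressed genes was called, beside 5.33% and 3.97% of all genes. In F1 dose 2 it was 1 of 12, beside 2.21%.

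Of 21 genes that set or keep imprints, 19 were tested in testis and 21 in ovary, where edgeR called 0 in each of the 11 comparisons (0 to 9 at an unadjusted p under 0.05). Over all ovary genes the unadjusted share ran from 4.93% to 24.5%. In testis edgeR made 5 calls over the 11 comparisons, where 0.0317% to 5.33% of all genes were called. Zfp57 fell in testis with a dose 1 father: 27.8, 18.2 and 18.7 CPM against 38.5, 36.9 and 39.6 CPM in control-parent offspring (-0.83 ± 0.13, edgeR adjusted p = 0.00118). It was also below the dose 1 mother group (32.7, 31.7 and 32.1 CPM; -0.57 ± 0.13, edgeR adjusted p = 0.0313). With a dose 2 father it was 35.6, 36.3 and 36.8 CPM, above the dose 2 mother group (31.6, 27 and 28.0 CPM), and the change of the parental difference with dose was called (0.89 ± 0.18, edgeR adjusted p = 0.0245). Tet1, an enzyme that oxidises methylated cytosine, fell with a dose 1 mother (-1.40 ± 0.27, edgeR adjusted p = 0.0224) and with a dose 2 mother (-1.41 ± 0.27, edgeR adjusted p = 0.0142), from 2.95, 2.76 and 2.09 CPM to 0.605 to 1.45 CPM. With an exposed father it was 1.42 to 1.83 CPM, also below every control-parent library. F1 controls had 1.14, 1.54 and 0.8 CPM of Tet1, and the control-parent mean of 2.6 CPM was the highest of the 9 testis groups.

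The 4 members Nap1l5, Nnat, Mcts2 and Zrsr1 lie in introns of host genes. H13, host of Mcts2, fell in testis with 2 dose 2 parents (82.3, 83.6 and 85.0 CPM to 69.5, 72.9 and 74.8 CPM; -0.22 ± 0.057, edgeR adjusted p = 0.0331), and Herc3, host of Nap1l5, fell in ovary in the same cross (39.8, 36.1 and 40.0 CPM to 25.1, 23.5 and 19.7 CPM; -0.76 ± 0.13, edgeR adjusted p = 0.0391). F1 controls had 72.1, 76.9 and 69.2 CPM of H13 in testis and 19, 32.2 and 30.7 CPM of Herc3 in ovary. Over all genes 4.59% were called in that testis comparison and 0.688% in the ovary comparison. That ovary comparison called 0 genes, Herc3 included, in the smaller fit without the 2 low long-gene libraries. Nap1l5 itself was 293, 305 and 207 CPM in control-parent ovaries and 189.5, 166 and 218 CPM with 2 dose 2 parents, a difference of -0.49 ± 0.27 (edgeR adjusted p = 0.275).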

How the data were processed

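RNA-seq was run on 54 testis and ovary libraries made with a stranded poly(A) kit, per the labels' protocols. The values are raw read counts per gene as the authors deposited them. Per the submitters' processing notes the tools were TopHat2 2.1.1 with Bowtie2 2.4.5 and build mm39, featureCounts 2.0.3, DESeq2 1.32.0, SAMtools 1.13, FastQC 1.19 and bcl2fastq 2.20. Annotation, strand setting and multimapped reads: not given in the sources used here. As mm39 gene models were not used here, exon lengths come from GENCODE M21 and promoters from RefSeq, both GRCm38.

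The 133 entries with a symbol but no identifier (0.319 to 0.377% of testis counts, 0.0591 to 0.0861% of ovary counts) were kept. Genes were filtered with edgeR's filterByExpr, scaled by TMM, and tested two-sided with edgeR 4.0.16 (R 4.3.3, limma 3.58.1), F1 and F2 fitted separately in each tissue, with Benjamini-Hochberg adjustment at 0.05. The F2 fits tested 19241 genes in testis and 17454 in ovary, the F1 fits 18923 and 17168. Alternatives were DESeq2 1.42.0, RLE scaling, no filter, other sets of libraries in the fit, a replicate block and each replicate left out. The scripts were tested on simulated data. Members and lists were chosen with earlier results of these data known. The text names each member called and, for the parental comparison, the 3 genes of each class with the smallest p; the other genes were picked with their values known.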

Additional observations from a re-analysis of the deposited data

Results flagged for a closer look

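Each pair of values here is a member whose 3 exposed libraries all lay on one side of the 3 controls in testis and all on the other side in ovary. The difference between tissues was not tested, and the F2 comparisons share their controls. Such opposite separation was seen in 0.609% of the 15277 genes with a median count of at least 10 in both tissues for F1 dose 1, 1.86% for a dose 1 mother, 4.46% for a dose 2 father and 2.69% for 2 dose 2 parents.

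In F1 at dose 1, Airn had a log2 fold change of -1.16 in testis and 0.23 in ovary, and Slc22a18 had 0.17 and -1.92. Counts were low: 5 to 16 per F1 testis library for Airn, and 1 to 122 per F1 and 9 to 33 per F2 ovary library for Slc22a18. Oviduct markers summed to 22.91 to 157.5 CPM in F1 control ovaries and 15.89 to 24.77 CPM at dose 1. Their part in the Slc22a18 values was not tested. With a dose 1 mother, Plagl1 had -0.23 in testis and 0.24 in ovary, and Grb10 had -0.20 and 0.22. With a dose 2 father, Gnas had -0.41 in testis and 0.086 in ovary, Mirg 0.28 and -1.05, Slc22a18 -0.23 and 0.48, and Impact, an inhibitor of the GCN2 stress kinase, 0.16 and -0.29. With 2 dose 2 parents, Gnas had -0.43 in testis and 0.13 in ovary. Of these values, edgeR called only those of Gnas in testis. Every group held 3 libraries, and outlying samples within a group were not tested.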

How the results depend on the processing

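Counts of members called were recomputed for 22 comparisons. With DESeq2, 2 members were called in testis F1 dose 2 (Igf2r, Plagl1), 1 with a dose 1 mother (Igf2), 1 with a dose 2 mother (Gnas) and 1 with a dose 1 father (Rian). In ovary DESeq2 called 1 with a dose 1 father (Mirg), 3 with 2 dose 2 parents (Meg3, Rian, Mirg) and 1 for dose 2 father against dose 2 mother (Igf2r). With all 27 testis libraries in the fit, 1 was called in F1 dose 2 (Igf2r) and 1 with a dose 1 father (Rian). With only the groups compared in the fit, the testis counts were 2 in F1 dose 2 (Igf2r, Peg10), 1 with a dose 1 father (Rian), 1 with a dose 2 father (Gnas) and 0 with 2 dose 2 parents. Without the filter, 1 was called with a dose 2 father (Gnas). A setting chosen after seeing the data, without 2 low long-gene F1 testis libraries, called 2 in F1 dose 2 (Igf2r, Peg10).

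Leaving out 1 library at a time, the testis counts ran from 0 to 3 with a dose 2 father, from 1 to 3 with 2 dose 2 parents, and from 0 to 1 with a dose 1 mother and with a dose 2 mother. In ovary they ran from 0 to 1 with 2 dose 2 parents, where Ube3a was called without library B of that group. Without testis control A the calls over all genes fell from 1026 to 82 (dose 2 father) and from 883 to 116 (2 dose 2 parents); the cause was not tested. No named log2 fold change turned its sign in these settings. The replicate block gave 2 members in each of those comparisons and 0 in all others, as without it. Every same-lettered pair had a correlation of deviations over 0.1 only in ovary F1 dose 1 against control (0.188 to 0.35), where the block also called 0 members. Low counts left Snrpn, Magel2, Rtl1, Phlda2 and, in testis, Zim1 untested.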
